A study of Mus musculus with 55 samples.

Results

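The ribosomal protein genes encode the proteins of the cytoplasmic ribosome. They were taken by symbol, as every gene named Rpl or Rps with a number and at most 1 of the letters a, l, x or y, together with Rplp0, Rplp1, Rplp2 and Rpsa, that both batches of the deposited count tables list. This gave 82 genes out of 34490 shared symbols. Of these, 47 belong to the large subunit, 32 to the small subunit and 3 to the stalk of the large subunit, and 6 of the 82 have a symbol that ends in l and mostly name diverged copies of another member. Numbered symbols of the kind given to pseudogenes were left out, and no measured value was used to choose the members. They lie on 19 chromosomes, with 14 of them on chromosome 7.

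The data were RNAseq read counts of whole mouse livers on a C57BL/6 background that carried floxed alleles of Rnf43 and Znrf3, the pair of E3 ubiquitin ligases that remove WNT receptors from the cell surface. In R&Zdel mice both genes were recombined in hepatocytes of adult animals, either with a Cre virus of hepatocyte tropism (AAV8-TBG-Cre) or with tamoxifen and a Cre-ERT2 under the albumin promoter. R&Zflox controls carried the same floxed alleles and received a null virus or the vehicle. Livers were taken without damage at 1, 3 and 7 months after deletion (1M, 3M, 7M), at 7 and 21 days after partial hepatectomy (PHx), and at 4, 50 and 170 days after the last of repeated CCl4 injections (CD, chronic damage).

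Batch 1 held 23 libraries and batch 2 held 30, and 48 of the 53 could be given a group from the labels. Batch 2 held 1M (4 R&Zdel and 4 R&Zflox livers, virus, both sexes), both PHx times (3 and 3 at each, virus), 3M (1 and 3, virus) and 7M (3 and 3, tamoxifen), all of them male but for 1M and 1 R&Zdel liver at PHx 21d. Batch 1 held 3M (1 female R&Zdel and 2 male R&Zflox), 7M (2 and 2) and every CD group (2 and 2 at 4 and 170 days, 2 R&Zdel and 1 R&Zflox at 50 days), all induced with tamoxifen, and male but for 1 R&Zflox liver at 7M and the R&Zdel liver at 3M. The labels mark the CD R&Zflox livers as damaged and the study's results treat the controls as injured alike, while its methods also mention vehicle for unrecombined littermates, and which holds for these livers was not tested here. The study's sample list enters both R&Zflox livers of CD 170d under CD 50d as well, whereas their labels give 170 days. The tables count whole genes, so they do not show the loss of the floxed exons. Znrf3 had 12.6 to 27.5 CPM (counts scaled to library size) in R&Zdel livers against 4.67 to 10.04 in R&Zflox livers of batch 1. In batch 2 it had 39.6 to 140.1 against 9.38 to 32.6. Rnf43 overlapped between the genotypes, with 19.8 to 34.2 against 5.16 to 20.9 CPM in batch 1 and 26.4 to 76.1 against 3.47 to 62.3 in batch 2. Hepatocyte genes such as Alb, Apoa1 and Cps1 summed to between 52860 and 158000 CPM over all groups, so the liver label held in every one.

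Ribosomes are assembled from ribosomal RNA and 1 copy of nearly every ribosomal protein, so cells usually keep the messages of the whole family in balance. Most of these messages begin with a run of pyrimidines at the 5' end (the TOP motif), through which mTOR and LARP1 control their translation, and the family is raised in growing cells, for instance by MYC. The mouse genome also holds many processed pseudogenes of ribosomal protein genes, so a short read from one of these messages can match several places equally well.

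Starting points of transcription with such a run were found at many members. Promoters of 60 members, 72 in all, could be matched in RefSeq (GRCm38.p6). A run of at least 8 C or T lay within 25 bases of the annotated start in 45.8% of these promoters, against 19.7% of all 32851 promoters. Of other motifs searched on both strands over the whole 300 bases, CCGGAAG (an ETS-type site) stood in 36.1% against 8.86%, AANATGGC (a YY1-type site) in 20.8% against 6.05%, GGGCGG in 58.3% against 35.7% and TATAAA in 8.33% against 13.6%. These matches describe letters and are not evidence that a factor bound. A pyrimidine run, shown in capitals, is printed here for members with a long run (Rpl7a, Rpl27a), for members with the results described further on (Rpl15, Rpl13a) and for the pair Rps27 and Rps27l, each as 60 bases before and 30 bases after the annotated start.
Rpl7a (chr2:26910747-26910836, plus strand): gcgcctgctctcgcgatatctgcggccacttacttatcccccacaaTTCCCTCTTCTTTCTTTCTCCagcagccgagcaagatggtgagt
Rpl27a (chr7:109519135-109519224, plus strand): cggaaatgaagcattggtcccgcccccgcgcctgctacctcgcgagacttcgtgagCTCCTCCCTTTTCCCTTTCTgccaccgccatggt
Rpl15 (chr14:18270957-18271046, minus strand): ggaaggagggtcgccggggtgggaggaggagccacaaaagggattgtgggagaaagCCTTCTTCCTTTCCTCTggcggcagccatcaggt
Rpl13a (chr7:45128716-45128805, minus strand): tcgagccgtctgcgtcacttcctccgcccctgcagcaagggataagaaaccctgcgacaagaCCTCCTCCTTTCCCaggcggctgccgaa
Rps27 (chr3:90213619-90213708, minus strand): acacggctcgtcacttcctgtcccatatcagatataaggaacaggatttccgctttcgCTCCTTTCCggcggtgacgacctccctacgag
Rps27l (chr9:66946026-66946115, plus strand): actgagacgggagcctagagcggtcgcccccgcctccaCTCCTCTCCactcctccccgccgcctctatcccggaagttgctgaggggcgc
In Rpl7a, Rpl27a, Rpl15 and Rps27 the run spans the annotated start, in Rpl13a it begins just behind it, and in Rps27l it ends upstream of it. The longest, in Rpl7a, is 21 bases.

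The coding sequences of Rps27 and its paralog Rps27l are shown because the 2 genes had very different counts. Both code for a small subunit protein and are equally long. Capitals mark the 61 positions at which they differ, which leaves an identity of 76.1% and a longest shared run of 11 bases.
Rps27: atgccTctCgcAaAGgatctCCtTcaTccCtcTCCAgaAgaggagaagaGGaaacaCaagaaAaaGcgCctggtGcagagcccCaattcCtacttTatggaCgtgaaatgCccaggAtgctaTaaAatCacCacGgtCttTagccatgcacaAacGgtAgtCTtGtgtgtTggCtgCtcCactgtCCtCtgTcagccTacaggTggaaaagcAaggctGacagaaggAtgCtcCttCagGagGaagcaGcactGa
Rps27l: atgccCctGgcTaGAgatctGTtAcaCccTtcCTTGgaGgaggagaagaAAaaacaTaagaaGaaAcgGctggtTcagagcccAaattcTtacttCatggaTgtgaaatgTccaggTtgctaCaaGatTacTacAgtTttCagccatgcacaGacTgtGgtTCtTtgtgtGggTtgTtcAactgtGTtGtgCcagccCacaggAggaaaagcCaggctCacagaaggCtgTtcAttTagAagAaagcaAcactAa
The shared runs are shorter than a read of 50 bases. Each of the 206 stretches of 50 bases in the Rps27 sequence, however, has an exact copy at another place of the mm9 genome, at 11 other loci in all. For Rps27l 49.03% of the stretches have one, at 4 other loci. Rps27l was counted at a median of 126 CPM per 1000 exon bases in batch 1, and Rps27 at 2.80. In batch 2 the medians were 89.0 and 3.16.

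The same relation ran through the family. Coding stretches of 50 bases could be looked up for 79 members. In 28 of them every stretch had an exact copy elsewhere, in 3 none had, the paralogs Rpl3l and Rpl39l among them, and the median share was 90.3%. Over the 75 members without a symbol ending in l, the share of copied stretches and the median level per exon length had a Spearman correlation of -0.87 in batch 1 and -0.84 in batch 2. These points share libraries, depth and annotation, and the values describe how the counts fall. The 4 members with at most 25% copied stretches had a median level of 325 CPM per 1000 exon bases in batch 1 and 273 in batch 2. The 28 members whose stretches were all copied had a median of 3.07 and 3.28. In batch 1 the counter left out reads that match several places. For batch 2 the study's methods name counting over all exons of a gene, and the handling of such reads is not given in the sources used here. What share of the difference between members comes from such reads and what share from the amount of message was not tested, so the order of levels that follows is an order of countable reads.

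**Figure D1:**
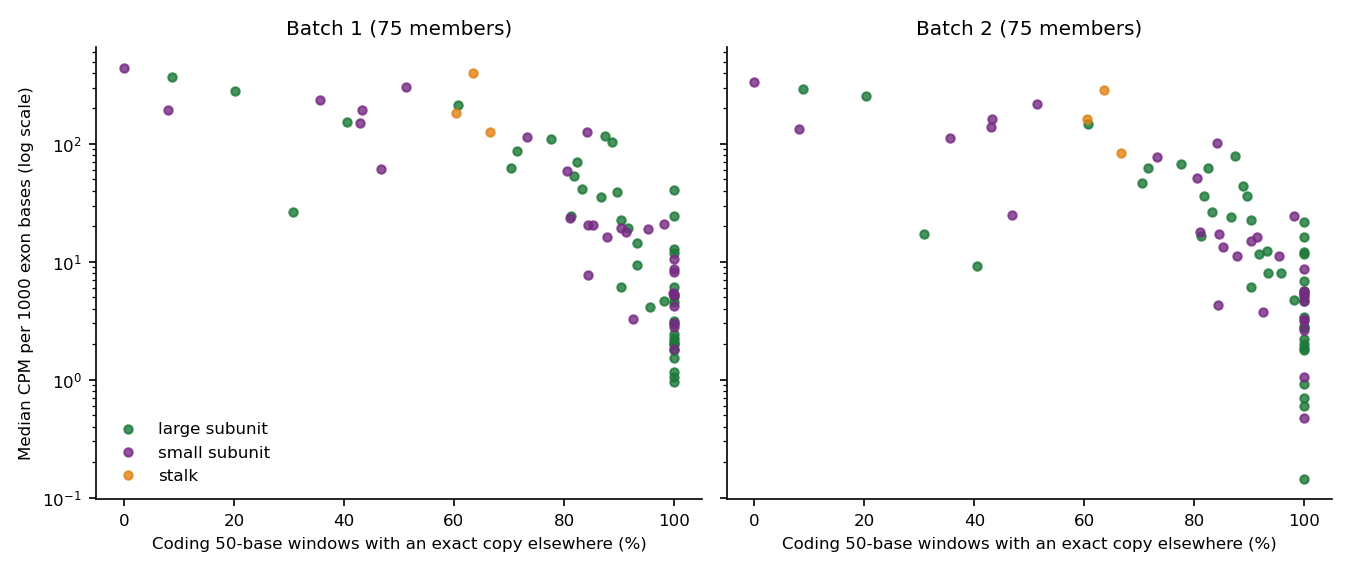
Each point is 1 of the 75 ribosomal protein genes without a paralog symbol, with the share of its 50-base coding stretches that have an exact copy elsewhere in the genome (horizontal axis, percent) and its median level over libraries (vertical axis, CPM per 1000 exon bases, log scale), for batch 1 on the left and batch 2 on the right, with large subunit genes in green, small subunit genes in purple and stalk genes in orange. Levels fall with the share of copied stretches: the 4 members at 25% or less have a median of 325 in batch 1, and the 28 at 100% a median of 3.07.

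Among the highest members per exon length were Rplp1 of the stalk, which recruits the elongation factors, and Rpl8, which lies close to the peptidyl transferase centre, with medians of 401 and 369 CPM per 1000 exon bases in batch 1 and of 287 and 293 in batch 2. The other stalk genes, Rplp0 and Rplp2, stood at 184 and 125 in batch 1 and at 162 and 83.4 in batch 2. Neighbours in this order were not separated: in 80 of 81 neighbouring pairs in batch 1 and in 81 of 81 in batch 2 the ranges over libraries overlapped. The lowest members of the usual set were Rpl9, Rpl24 and Rpl21 in batch 1, at 0.960, 1.06 and 1.16, and Rpl24, Rps12 and Rpl23a at the foot of batch 2.

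The 10 members with most counts took 56.9% of all ribosomal protein counts in batch 1 and 60.7% in batch 2. In CPM, 75 members had a median of at least 1 in each batch, and 15 in batch 1 and 10 in batch 2 had a median of at least 100. All members together made up 0.326 to 0.649% of a library's counts in batch 1 and 0.283 to 0.556% in batch 2. Libraries held 22678922 to 38692089 counts in batch 1 and 11721687 to 32168223 in batch 2, so the low members rest on few reads: Rpl24 had a median count of 7 and Rps27 of 40 over the 53 libraries.

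**Figure D2:**
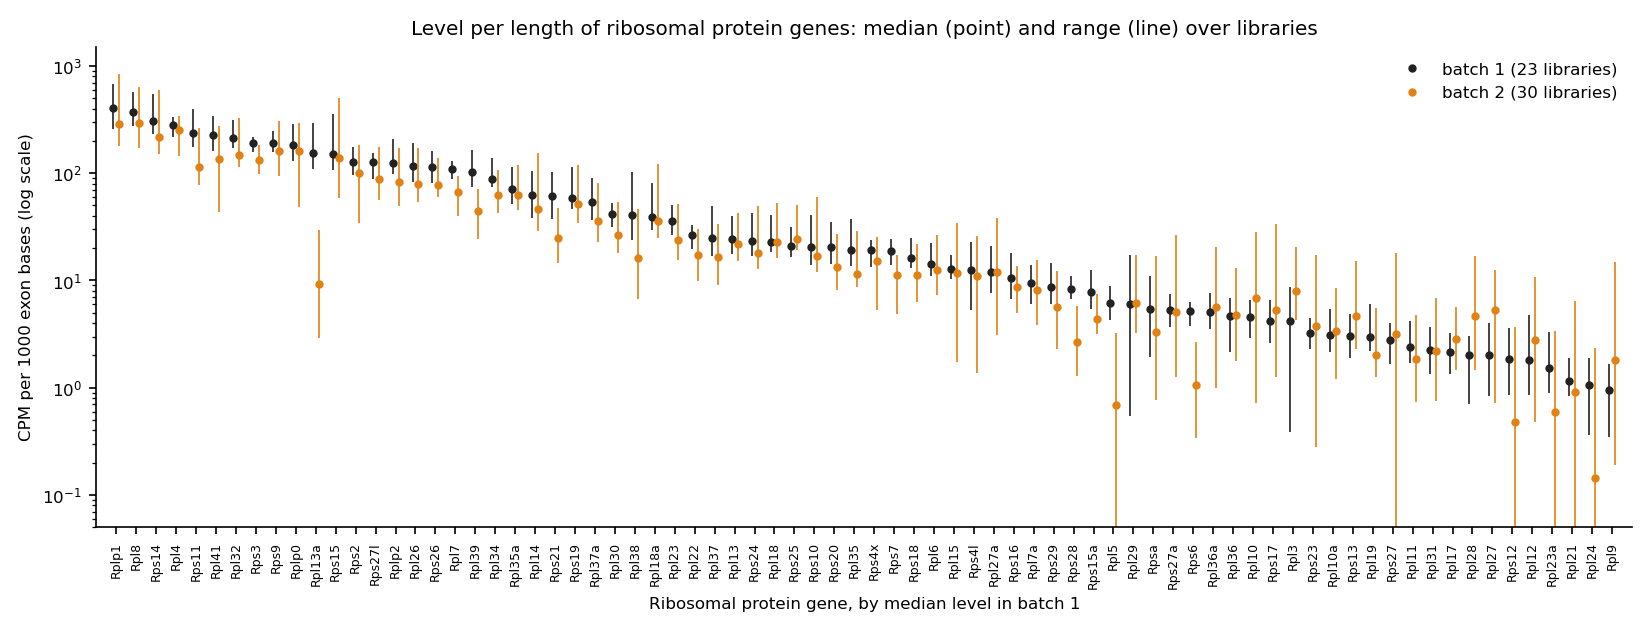
Level of the ribosomal protein genes per exon length (CPM per 1000 exon bases, log scale; Rpl3l, Rpl6l, Rpl10l and Rpl39l, with a median at or near 0, and 2 members not described are left out), ordered by the batch 1 median, with the median as a point and the range over libraries as a line, batch 1 in black (23 libraries) and batch 2 in orange (30 libraries). Rpl13a, Rpl5 and Rps6 stand apart in batch 2, far below their batch 1 level.

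Among the paralogs, Rpl10l, a retrogene known from the testis, had 0 counts in all 53 libraries, which allows at most 0.0775 to 0.256 CPM (3 counts per library; counting error only). Rpl39l, also of the germ line, had 0 in 44 libraries, the muscle gene Rpl3l in 38 and Rpl6l in 45. None of these 4 was tested. Rps4l and Rps27l were countable in every library, Rps4l at a median of 23.4 CPM in batch 1 and 20.9 in batch 2 beside 26.3 and 20.7 CPM for Rps4x.

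The spread between livers of a group was small for the well counted members. The within-group SD of log2 CPM had a median of 0.26 over 76 members and of 0.32 over all 13320 genes in batch 1, and of 0.44 and 1.27 in batch 2, and the genes differ in level. Members with a median CPM under 10 had 0.76 in batch 2 and those at or above it 0.38. Rpl3, whose protein reaches into the peptidyl transferase centre, was far apart between livers of 1 group, at 13.2 and 0.6996 CPM in the R&Zdel 7M livers of batch 1, at 0.622 and 5.03 in R&Zflox 7M and at 13.5 and 1.14 in R&Zdel CD 50d. No library of batch 2 had less than 6.63.

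The batches were compared because 3M and 7M livers were in both. A gene was called at a Benjamini-Hochberg adjusted p under 0.1 over all genes in edgeR's quasi-likelihood fit. Of the 76 members tested, 18 were called and all 18 were higher in batch 1, where 14% of all genes were called and 6.93% were higher (31 members were under an unadjusted p of 0.05, and 22.5% of genes). The median log2 difference was 0.34 for the members and 0.17 for all genes. Rpl5, which together with Rpl11 binds MDM2 when ribosome assembly fails, had a median of 12.5 CPM in batch 1 (8.80 to 18.1) and of 1.42 in batch 2 (0 to 6.57). The log2 difference was 3.78 ± 0.75 (SE; edgeR adjusted p = 0.00116). Rpl13a, which also takes part in translational silencing after interferon gamma, had 158 CPM (113 to 304) against 9.43 (2.99 to 30.3), a difference of 3.64 ± 0.32 (edgeR adjusted p = 1.14e-08). Rps6, the substrate of S6 kinase, had 7.23 (5.26 to 8.88) against 1.47 (0.471 to 3.71), a difference of 3.00 ± 0.59 (edgeR adjusted p = 0.00102). In none of these 3, named for their large difference, did the batches overlap, and how many other genes do so was not counted.

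Rps28 (1.89), Rps21 (1.32), Rps2 (1.29), Rpl39 (1.26), Rpl38 (1.16) and Rpl41 (1.10) followed among the called members, in log2 difference. Rps12 at 2.34 was not called (edgeR adjusted p = 0.171), nor was Rpl11 with 0.70. The lowest members, Rpl27 (-1.68), Rpl9 (-1.51), Rpl28 (-1.44), Rpl3 (-1.004) and Rpl12 (-0.90), were not called either. The number of calls was 31 when the R&Zdel 7M library replicate 5 was left out. Mitochondrially encoded genes also differed, with 0 counts in every grouped library of batch 2 and 1078 to 3814 CPM in batch 1. The batches were sequenced and counted apart, and what differs between them cannot be told apart, so all levels are given by batch.

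The effect of the deletion in undamaged livers was asked at 1M, 3M and 7M. No ribosomal protein gene was called at any of these times by edgeR. At 1M the summed CPM of all members was 3310 ± 556 in R&Zdel (SD, n = 4) and 3288 ± 134 in R&Zflox (SD, n = 4), with R&Zdel livers from 2589 to 3938 on both sides of the controls. The median log2 fold change was -0.11 over the members and 0.01 over all genes. No member was under an unadjusted p of 0.05 (7.74% of genes were) and none was called by DESeq2, while 0.498% of genes were called by edgeR. In bulk tissue, fewer cells of a type and less RNA per cell cannot be told apart here or in the comparisons that follow.

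At 3M, with 2 R&Zdel livers, 1 female with tamoxifen in batch 1 and 1 male with virus in batch 2, the member median was -0.24 against -0.09 over all genes. Only Rpl5 was under an unadjusted p of 0.05, with 6.17 CPM in the R&Zdel liver of batch 2 against 0, 0.845 and 0.235 in the R&Zflox livers (log2 fold change 2.64, edgeR adjusted p = 0.685). In batch 1 it had 10.86 CPM in the R&Zdel liver, below both R&Zflox livers at 12.96 and 10.95. No member was called by edgeR or DESeq2 (0.226% of genes called and 6.43% under an unadjusted p of 0.05 in edgeR).

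At 7M the members leaned to higher counts in R&Zdel livers without passing the test. The summed CPM in batch 2 was 3000, 3078 and 3203 in the R&Zflox livers and 4528, 3181 and 6786 in the R&Zdel livers. Thus 1 R&Zdel liver (replicate 4) lay within the control range, and replicate 5 held the highest sum of batch 2. In batch 1 the sums were 4006 and 4813 in R&Zflox and 4052 and 5269 in R&Zdel, which overlap. The fitted median log2 fold change was 0.43 over the members and -0.02 over all genes, and 65 of 76 members were above 0. Within batch 2 alone the median was 0.68, within batch 1 alone it was -0.07, and without replicate 5 of R&Zdel it was 0.17.

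The stalk genes Rplp0, Rplp1 and Rplp2 stood at log2 fold changes of 0.55, 0.49 and 0.41, Rpsa at 1.09, Rpl11 at 0.80, Rpl5 at 0.29 and Rps6 at -0.83, none of them called (edgeR adjusted p from 0.615 to 0.969).

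In edgeR 0 members were called at 7M and 14 were under an unadjusted p of 0.05, against 0.576% and 8.89% of all genes. DESeq2 called 5 members and 2.05% of all genes, and gave no adjusted p for 48 members. Without replicate 4 of R&Zdel edgeR called 6 members and 2.57% of all genes. Rps15, of the small subunit, had 73.2, 65.3 and 36.8 CPM in R&Zflox and 185, 44.5 and 317 in R&Zdel of batch 2, with 97.7 and 80.4 against 77.6 and 132 in batch 1 (log2 fold change 1.12, edgeR adjusted p = 0.307). Rpl8 had 147, 153 and 218 in R&Zflox and 427, 196 and 542 in R&Zdel of batch 2, and 348 and 236 against 269 and 408 in batch 1, where the groups overlapped (0.82, edgeR adjusted p = 0.307). In both genes the high values of batch 2 were those of the same 2 livers.

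The change of the genotype effect from 1M to 7M had a member median of 0.61, against 0.00 over all genes. Above 0 were 66 of 76 members and 50.2% of all genes. No member was called by edgeR or DESeq2. The edgeR test called 0.0% of genes, and 2 members (Rps15 and Rpl37a) and 5.85% of genes were under an unadjusted p of 0.05. Without replicate 5 of R&Zdel 7M the median was 0.28. The 1M and 7M mice also differ in the way Cre was given.

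**Figure D3:**
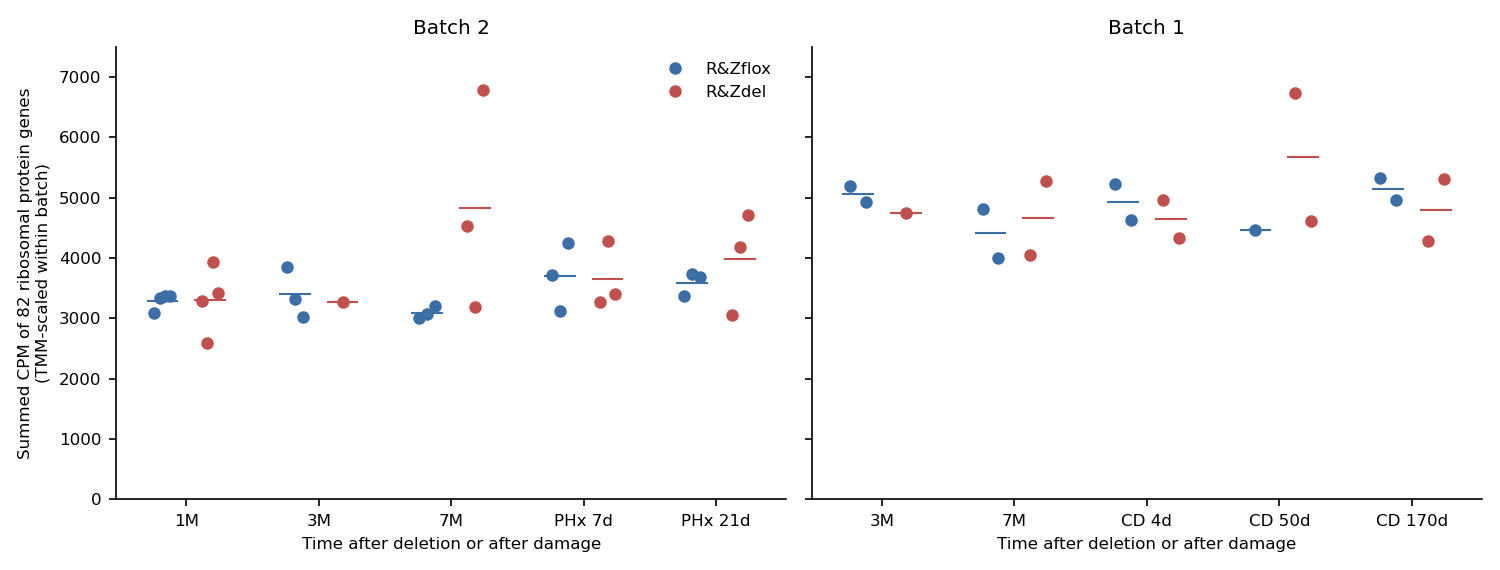
Summed CPM of all ribosomal protein genes per library (points) with the group mean (line), R&Zflox in blue and R&Zdel in red, by time after deletion (1M, 3M, 7M) or after damage, batch 2 on the left and batch 1 on the right. In batch 2 the R&Zdel livers at 7M reach 6786, while the R&Zflox livers lie between 3000 and 3203, and in batch 1 the highest value is 6743, in an R&Zdel liver at CD 50d.

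Partial hepatectomy removes liver lobes so that the remaining hepatocytes re-enter growth. At PHx 7d the member sums were 3717, 3119 and 4247 CPM in R&Zflox and 3263, 4279 and 3405 in R&Zdel, which overlap. The median log2 fold change was -0.03 over the members and -0.01 over all genes. No member was called by edgeR or DESeq2, against 0.352% of genes in edgeR. Rps20, with 38.98, 43.4 and 37.3 CPM in R&Zdel and 61.7, 44.0 and 93.2 in R&Zflox, was the only one under an unadjusted p of 0.05 (5.93% of genes; log2 fold change -0.72, edgeR adjusted p = 0.817).

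At PHx 21d the sums were 3366, 3731 and 3677 CPM in R&Zflox and 4177, 4707 and 3047 in R&Zdel, which overlap. The liver at 3047, below every R&Zflox liver, was the only female after PHx. The member median was 0.32, with 65 of 76 above 0, and that of all genes -0.01, with 49.3% above 0. No member was called by edgeR or DESeq2, against 0.423% of genes in edgeR, and 1 member and 8.67% of genes were under an unadjusted p of 0.05.

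Set against undamaged 1M livers, the members at PHx 7d had medians near 0. In R&Zflox the member median was 0.00 (all genes 0.05), and in R&Zdel 0.03 (all genes 0.01). Neither edgeR nor DESeq2 called a member in either genotype, with 0.0235% and 0.0157% of genes called by edgeR. Under an unadjusted p of 0.05 there were 0 members in R&Zflox and 1 in R&Zdel (Rpl15, -1.53, edgeR adjusted p = 0.967), against 5.79% and 4.99% of genes. The genotype effect at PHx 7d less that at 1M had a member median of 0.00, with 0 calls in edgeR among members (0.0% of genes) and in DESeq2, and 0 members under an unadjusted p of 0.05 (4.75% of genes). Comparisons with 1M share the 1M libraries.

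**Figure D4:**
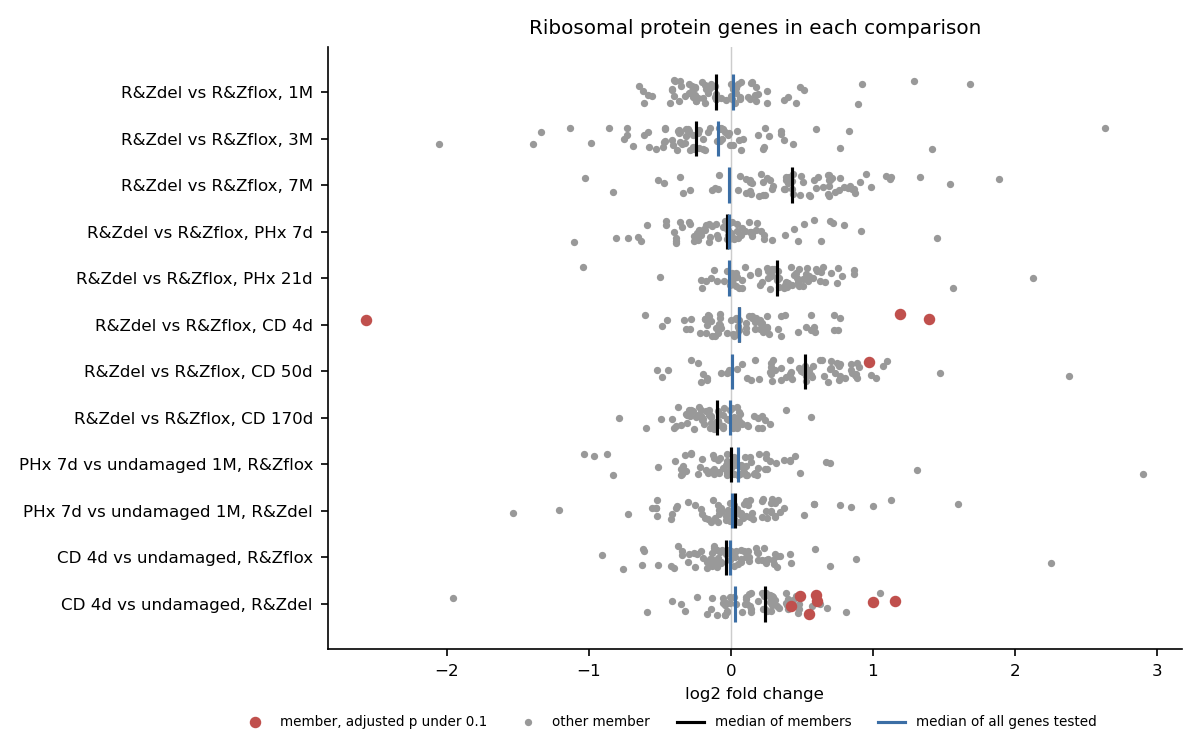
Log2 fold change of every tested ribosomal protein gene (points) in each comparison, with called genes in red, the median of the members as a black bar and the median of all genes tested as a blue bar. The black bar lies to the right of the blue bar at 7M (0.43 against -0.02), PHx 21d (0.32 against -0.01) and CD 50d (0.53 against 0.01), with at most 1 called gene in each.

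Chronic damage with CCl4 injures the hepatocytes around the central vein again and again, and was asked here 4, 50 and 170 days after the last dose. At CD 4d, where 27.6% of all genes were called between the genotypes (14.6% higher and 13% lower in R&Zdel), 3 of 74 members were. Rpl12, of the stalk base, had 3.06 and 1.78 CPM in R&Zdel and 1.09 and 0.843 in R&Zflox, a log2 fold change of 1.40 ± 0.46 (SE; edgeR adjusted p = 0.0638). Rpl27 had 2.95 and 1.56 against 1.01 and 1.05, a change of 1.19 ± 0.40 (edgeR adjusted p = 0.0671). Rpl3 had 2.25 and 1.12 against 10.2 and 10.7, a change of -2.57 ± 0.83 (edgeR adjusted p = 0.0617). In all 3, picked by their calls, the 2 livers of each genotype did not overlap at this time. How many other genes do so was not counted. For Rpl3 the R&Zdel values lay within the range that undamaged livers of batch 1 had, and in Rpl12 and Rpl27 all values were a few CPM.

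All 3 lost the call when either R&Zflox library was left out. Across the family the member median was 0.06 and that of all genes 0.06, and 6 members and 35.0% of genes were under an unadjusted p of 0.05. DESeq2 called 3 members. The summed CPM was 4964 and 4332 in R&Zdel and 5235 and 4633 in R&Zflox, which overlap. As a share of the counts on shared symbols, without TMM scaling, the members took 0.675% and 0.675% in R&Zdel and 0.496% and 0.459% in R&Zflox. With library totals in place of TMM factors, 44 of 74 members were called, 43 of them higher, but 43.8% of all genes were called too and their median moved to 0.57, the same as the member median of 0.57.

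At CD 50d, where only 1 R&Zflox liver had a file and a group, 1 of 74 members was called. Of all genes 7.6% were called and 2.97% were higher. The member median was 0.53, with 61 of 74 above 0, against 0.01 for all genes, and 21 members and 23.1% of genes were under an unadjusted p of 0.05. Of all genes 50.6% had a fold change above 0. The sums were 6743 and 4609 CPM in R&Zdel and 4470 in R&Zflox. DESeq2 called 13 members, and 13% of all genes. Leaving out replicate 1 of R&Zdel, which holds the high sum, gave 0 edgeR calls and a median of 0.31 (0.0358% of all genes called). Leaving out replicate 2 gave 18 calls among the members and 7.64% of all genes.

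Of the 21 members, Rpl29 had the largest fold change, with 29.2 and 20.9 CPM in R&Zdel at CD 50d and 9.499 in R&Zflox (1.47, edgeR adjusted p = 0.117). Rpl13a stood at a log2 fold change of 1.10, Rps15 at 1.07 and Rps20 at 0.88 without passing (edgeR adjusted p = 0.108, 0.176 and 0.129). The 18 members with less than 75% copied stretches had a median of 0.55 and the other 56 a median of 0.49.

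At CD 170d, where both R&Zflox livers are those the study's sample list also enters under CD 50d, the genotypes did not separate. The sums were 4276 and 5304 CPM in R&Zdel and 5332 and 4959 in R&Zflox. The member median was -0.10 against 0.00 for all genes. Neither edgeR nor DESeq2 called a member, against 0.643% of genes in edgeR, and 1 member (Rpl27a, -0.60, edgeR adjusted p = 0.473) and 9.26% of genes were under an unadjusted p of 0.05. The genotype effect at CD 4d less that at CD 170d had a member median of 0.20 (all genes 0.06). No member was called by edgeR, where 7.66% of genes were, and DESeq2 called 1. Under an unadjusted p of 0.05 there were 3 members (Rpl3, Rps12 and Rpl27) and 22.9% of genes.

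CD 4d livers were compared within genotype with undamaged males of batch 1, which were 2 livers at 3M and 1 at 7M in R&Zflox and 2 livers at 7M in R&Zdel. Time since deletion differs along with damage in this comparison, and the effects of the 2 cannot be told apart. In R&Zflox the member median was -0.03 (all genes -0.01), no member was called by edgeR and 1 by DESeq2, with 7.25% of all genes called in edgeR. Of the 75 members, 4 were under an unadjusted p of 0.05 (18.9% of genes), among them Rpl29 with 22.3 and 16.3 CPM after CD and 0.916, 10.3 and 1.15 CPM without damage (2.25, edgeR adjusted p = 0.109). In R&Zdel 43.6% of all genes were called and 22.3% were higher, and 7 members were called, all higher. There were 8 members and 45.4% of genes under an unadjusted p of 0.05, and the member median was 0.24 against 0.03 for all genes.

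Among the called members were the small subunit genes Rps4l (1.15), Rpsa (1.00), Rps20 (0.55) and Rps15a (0.49) and the large subunit genes Rpl39 (0.61) and Rpl15 (0.42), in log2 fold change. Rps4l had 29.7 and 43.1 CPM at R&Zdel CD 4d and 21.2 and 14.1 in the undamaged R&Zdel livers (1.15 ± 0.30, SE; edgeR adjusted p = 0.0115). Rpl39, whose protein lines the exit tunnel, had 64.3 and 51.9 against 38.1 and 43.9 (0.61 ± 0.20, edgeR adjusted p = 0.0357). Rpsa, also known as the laminin receptor precursor, had 10.04 and 12.9 against 4.17 and 8.21 (1.00 ± 0.37, edgeR adjusted p = 0.0549). In these 3 the ranges did not overlap.

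In Rps15a, with 49.6 and 39.7 CPM against 28.2 and 40.3, the ranges overlapped (edgeR adjusted p = 0.0831). Rps20 had 94.3 and 72.9 CPM against 52.0 and 70.8, and Rpl15 had 30.3 and 27.1 against 25.2 and 20.8. Both were separate by a few CPM (edgeR adjusted p = 0.0851 and 0.0767). With 1 liver left out at a time, 2 to 16 members were called, 16 without replicate 2 of R&Zdel 7M. With library totals 56 of 75 members were called higher, where 55.6% of all genes were called, all genes had a median of 0.60 and the members 0.79.

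**Figure D5:**
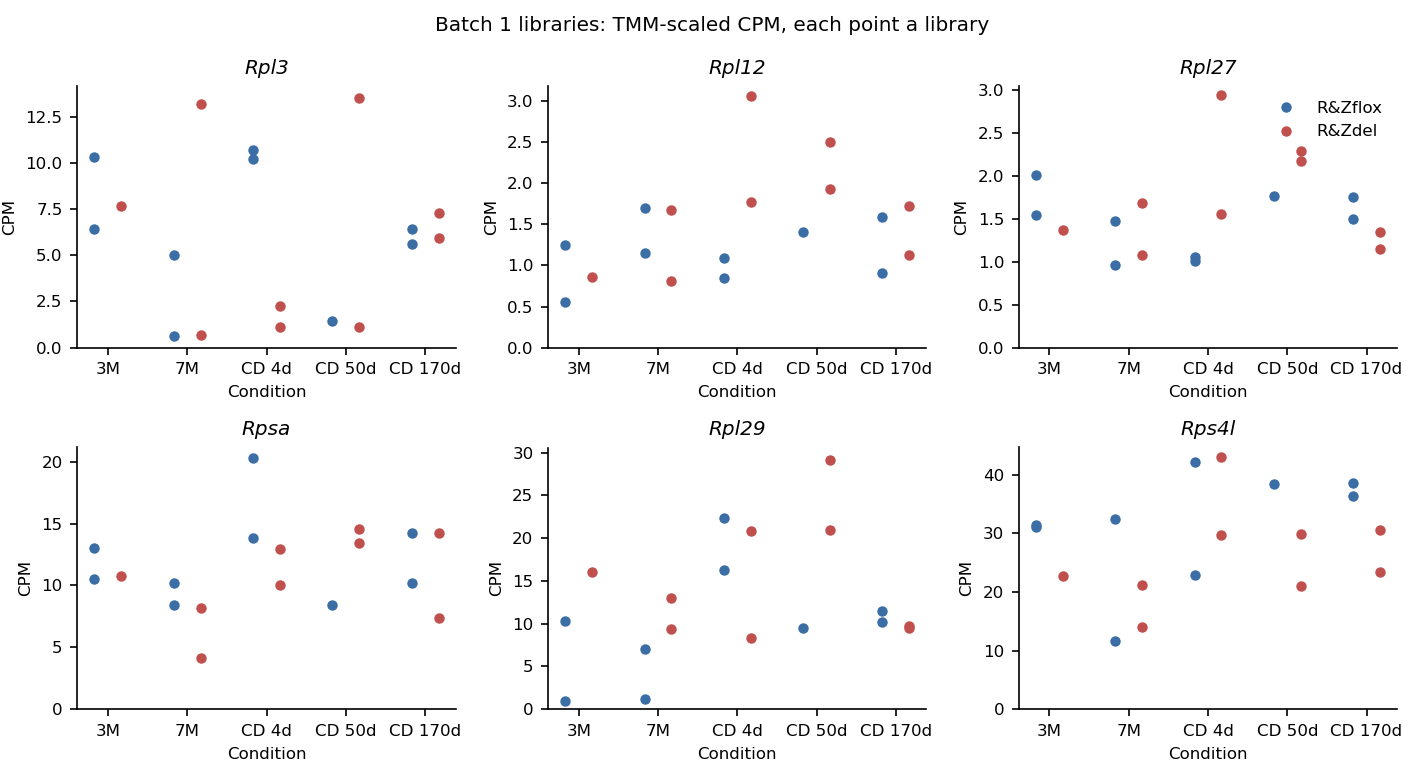
CPM per library of 6 ribosomal protein genes in batch 1 (vertical axes from 0), by condition, R&Zflox in blue and R&Zdel in red. Rpl3 falls into low and high libraries within several groups, Rpl12 and Rpl27 stay at or below 3.06 CPM, and Rpl29 is highest in an R&Zdel liver at CD 50d with 29.2.

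Markers of other cells moved with the CD groups. Cholangiocyte genes such as Krt19, Krt7, Epcam, Sox9 and Spp1 summed to 2692 to 4187 CPM in R&Zdel at CD 4d and 104 to 173 in R&Zflox, and all 6 tested were called higher. At CD 50d they summed to 615 to 896 CPM against 123 in the single R&Zflox liver. Stellate cell genes summed to 220 to 559 against 90.3 to 132 CPM at CD 4d, cell cycle genes to 272 to 284 against 100.7 to 192, and hepatocyte genes to 52860 to 73140 against 108100 to 109700. Endothelial genes summed to 76.4 to 142.5 CPM in R&Zdel at CD 4d, below the 238.3 to 242.4 of R&Zflox. At CD 50d the sums were 109.8 to 160.1 against 211.4 CPM for endothelial genes, 193.6 to 228.2 against 70.9 for stellate cell genes, and 63340 to 112800 against 124200 for hepatocyte genes. Macrophage genes summed to 261.5 to 554.4 against 503.6 CPM there. What part these shifts have in the member values at CD was not tested. At 7M, where the sums of batch 2 diverged, the cholangiocyte genes summed to 34.5 to 135 CPM in R&Zdel and 74.95 to 78.2 in R&Zflox. Macrophage genes were lower in every R&Zdel liver at 7M, with 108.5 to 213.3 CPM against 230.6 to 319.8 in batch 2 and 122.7 to 328.9 against 406.1 to 507.0 in batch 1. Hepatocyte genes summed to 74750 to 133300 against 114600 to 135800 CPM in batch 2 and to 76400 to 76980 against 95100 to 127300 in batch 1. Their part in the member values at 7M was not tested.

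The other parts of the translation system were read beside the members. At CD 4d 13% of all genes were lower in R&Zdel and 14.6% higher. Of the genes of the mitochondrial ribosome (78 tested), 24 were lower and 0 higher there, with a median of -0.41. In R&Zdel at CD 4d against undamaged R&Zdel livers 36 were lower and 1 higher, where 21.3% of all genes were lower, and with library totals 0 were lower and 16 higher. Their median less that of all genes was -0.46 in this comparison with TMM and -0.46 with library totals. Relative to the median of all genes the difference between R&Zdel and R&Zflox at CD 4d was -0.47 with TMM, -0.46 with DESeq2 size factors and -0.47 with library totals, but the raw median turned to 0.10 with totals, with 9 higher and 1 lower. At CD 50d, against the single R&Zflox liver, the mitochondrial ribosomal genes had a median of 0.00 and all genes 0.01. With library totals these medians were 0.22 and 0.26. At 1M and 7M no mitochondrial ribosomal gene was called, nor after PHx 7d against 1M.

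Of 20 further translation genes with TOP messages, 3 were lower and 0 higher at CD 4d, against 13% and 14.6% of all genes. The 3 were Eif4b (-0.69), Eef1a1 (-0.56) and Eif3l (-0.47) in log2 fold change. With library totals 10 of the 20 were higher and 0 lower, where 43.8% of all genes were called. Eif4b is a helicase cofactor of initiation and Eef1a1 brings aminoacyl-tRNA to the ribosome. Between batches 5 were higher in batch 1 and 1 lower, against 6.93% and 7.08% of all genes. At 1M, 3M, 7M, PHx 7d, PHx 21d, CD 50d and CD 170d 0 of the 20 were called by edgeR.

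Of 37 tested genes of ribosome assembly, 5 were higher and 2 lower at CD 4d, against 14.6% and 13% of all genes. The box C/D snoRNP core genes Nop58 (1.08) and Nop56 (0.88), the GTPase Gnl3 (0.73), Rrp12 (0.91) and Nob1 (0.59) were higher, and Nop10 (-0.82) and Polr1d (-0.66) lower. At CD 50d, against the single R&Zflox liver, the 37 genes had a median log2 fold change of -0.42 and all genes 0.01. Nop58 stood at -1.21 and Nop56 at -1.09 there, beside Bysl (-1.23) and Ltv1 (-1.20). With library totals the median of the 37 at CD 50d was -0.18 and that of all genes 0.26. Among 12 regulators, Mycn (2.91) and Mdm2 (1.09) were higher and Eif4ebp2 (-0.93) was lower at CD 4d, where 27.6% of all genes were called. With library totals 27 of the assembly genes were called higher at CD 4d and 0 lower. Of all genes 43.8% were called there, with a median of 0.57. A list of 9 members with human counterparts mutated in Diamond-Blackfan anaemia, such as Rps19 and Rpl11, had no call between genotypes at any time in edgeR. The list does not hold every such gene. Its medians were 0.68 at 7M and 0.42 at CD 50d, beside 0.43 and 0.53 over all members tested.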

How the data were processed

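RNA of 53 livers was sequenced as single reads of 50 bases. Per the labels, reads were trimmed, aligned with STAR 2.5.0a to mm10 and counted per gene with featureCounts (1.5.0-p1 and 1.5.0-p3). The headers of batch 1 give an unstranded count over exons in which reads that map to several places are left out. For batch 2 the study's methods name a UCSC gene file of mm10 and a later counter version than the labels do. The authors deposited raw counts, 1 table per library in batch 1 and a joint table in batch 2, and 0 columns belonged to no sample. Libraries held 11721687 to 38692089 counts, and intervals from counts cover counting error only.

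Counts on the 34490 shared symbols were scaled by TMM and tested with edgeR 4.0.16 (quasi-likelihood; R 4.3.3). The undamaged fit had 25 libraries with genotype by time, sex and batch as terms, the PHx fit 20 libraries with sex, the CD fit 11 libraries and the fit of CD against undamaged livers 16 males of batch 1. Genes needed a CPM above 1 in 3 libraries (undamaged, PHx), or of at least 1 in 6 (CD) or 8 (males of batch 1), which kept 76, 76, 74 and 75 members. Members not tested were Rpl3l, Rpl6l, Rpl10l, Rpl39l, Rpl23a and Rpl24, with Rpl9 in the last 2 fits and Rpl28 in the CD fit. DESeq2 1.42.0 was an alternative, and the scripts were tested on simulated data. Copied stretches were counted in the mm9 genome and promoters taken from RefSeq (GRCm38.p6), with no coordinate carried between builds. In the 1M groups all 4 pairs of same-numbered livers had correlated deviations (0.162 to 0.182). The labels do not say that the numbers pair livers. Each such 1M pair joins a female with a male. The fit holds a sex term, but a pairing and a genotype effect that differs between the sexes cannot be told apart. All results above come from fits without pairs, and a block by replicate number was an alternative only.

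Named were up to 5 called members with the highest and lowest fold change per comparison, paralogs and their parents, stalk genes, Rpsa, Rps6, Rpl5 and Rpl11, the extremes of the batch difference and of the level per length. Other members named, such as Rps15, Rpl29 and Rpl37a, were chosen after their values were seen. The members and lists were chosen with earlier results of these data known. The labels do not say that livers come from separate animals, which the study's methods do, and 5 libraries with conflicting labels entered no comparison. Some results are not reported here.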

Additional observations from a re-analysis of the deposited data

Results flagged for a closer look

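The summed CPM of the ribosomal protein genes was 3089 in 1 R&Zflox liver at 1M (replicate 3), while the other 3 livers of that group lay between 3331 and 3369. The gap made up 0.864 of the group's range, which set it apart as an isolated lowest value. Of 35 groups of values looked at in this way 1 stood out, and chance alone sets apart about 1 in 20.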

How the results depend on the processing

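No called member changed sign where it had an adjusted p. Of 284 counts of called members under an alternative 36 moved by more than 1.5 times, and of 284 medians 7 moved by more than the spread between replicates. In 268 fits under an alternative the member median changed sign in 34, of which 30 had a median under 0.1 in size as reported. With library totals it was 0.08 at 1M (all genes 0.19), 0.11 at CD 170d (0.21), 0.06 at PHx 7d (0.07), 0.05 for CD 4d against undamaged R&Zflox (0.08) and -0.08 for PHx 7d less 1M (-0.10), and with male libraries alone 0.08 at 1M. Over members with under 75% copied stretches it was 0.05 at 1M, -0.05 at CD 4d and 0.12 for CD 4d against undamaged R&Zflox. With library totals in place of TMM factors, calls were 44 (median 0.57) at CD 4d, 10 at CD 50d, 56 (0.79) for CD 4d against undamaged R&Zdel, 1 for R&Zflox and 1 (0.50) for CD 4d less CD 170d, and the median of 7M less 1M was 0.31. DESeq2 size factors gave 4 calls for CD 4d against undamaged R&Zdel. Without a filter on low counts there were 14 calls at CD 50d, 3 and 3 for CD 4d against undamaged R&Zdel and R&Zflox, and 1 for CD 4d less CD 170d. The likelihood ratio test gave 10, 1 and 1 at CD 50d, CD 4d against undamaged R&Zflox and CD 4d less CD 170d. The DESeq2 test called 5 at 7M, 13 at CD 50d, 3 and 1 for CD 4d against undamaged R&Zdel and R&Zflox, and 1 for CD 4d less CD 170d. The study's thresholds gave 9 between batches, 2 for CD 4d against undamaged R&Zdel, 1 for PHx 7d against 1M in R&Zdel and 0 at CD 50d. With the 2 R&Zflox livers of CD 170d taken as CD 50d, as the study's sample list also enters them, CD 50d had 14 (27% of all genes). In batch 1 alone the median at 7M was -0.068. The cause of these shifts was not tested.

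Leaving out 1 library at a time gave 0 to 6 calls at 7M (6 without R&Zdel replicate 4) and a median of 0.17 to 0.56, 0 to 3 at CD 4d (0 without either R&Zflox library, 1 without R&Zdel replicate 1), 0 to 18 at CD 50d with a median of 0.31 to 0.76, 16 to 31 between batches, 2 to 16 for CD 4d against undamaged R&Zdel, 0 to 1 for R&Zflox (1 without replicate 3 of 3M) and 0 to 1 for CD 4d less CD 170d (1 without R&Zflox replicate 2 of CD 170d). The median of 7M less 1M ran from 0.28 to 0.74. With the replicate block, 2 members were called at CD 4d (Rpl27 was lost) and 0 at 1M, 7M, CD 170d, PHx 7d and PHx 21d, with medians of -0.13 at 1M and 0.29 at 7M. Same-numbered livers correlated at 0.33 at CD 4d, above the 1M values, -0.36 at CD 170d, -0.14 to 0.19 at 7M and -0.07 to -0.01 after PHx. With 2 livers per group both pairs at CD 4d, and both at CD 170d, give the same value. These correlations cannot show whether the numbers pair livers. Crossing the numbers at CD 170d gave 0 calls. A block could not be fitted at 3M or CD 50d.

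Depth limits the low members: Rpl24 had a median of 7 counts, and 1 R&Zflox liver carries CD 50d.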

Other observations

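The 5 libraries of batch 1 whose labels put them in no single group had summed CPM of the ribosomal protein genes of 3931, 4890, 4902, 4440 and 4146. For Rpl3 they held 11.67, 0.603, 8.61, 8.22 and 1.02 CPM, and for Rpsa 3.62, 12.6, 7.01, 5.43 and 5.22 CPM. Symbols of ribosomal protein pseudogenes, 260 in the files, summed to between 8.45 and 58.3 CPM in the grouped libraries. The ribosomal protein genes outside the symbol rule (7 listed, 5 or 6 tested) had 1 higher and 0 lower at CD 4d, 0 and 0 in the other comparisons between genotypes, and 2 higher and 1 lower in batch 1 against batch 2.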
